A study of Drosophila melanogaster with 2 samples.

Results

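The Uhg genes of Drosophila melanogaster are noncoding genes whose introns carry small nucleolar RNAs (snoRNAs). They were taken by name, as all genes of the Ensembl annotation whose name is Uhg followed by a number. The rule itself uses no binding value. The rule found 7 genes, Uhg1 to Uhg5, Uhg7 and Uhg8, of 18164 annotated genes on the 6 main chromosome arms. Binding of Max was read from ChIP-seq peak lists of whole embryos, male and female together, aged 0 to 24 h. The flies carry a stable transgene for Max fused at its C terminus to GFP, and chromatin sheared to 200 to 800 bp was precipitated with an antibody to GFP by the sample descriptions, while the antibody entry of the labels reads Max. There was 1 group, Max-GFP embryos, with 2 biological replicates, numbered 2 and 3, and no embryos without the fusion. The promoter that drives the fusion is not named in the labels, and the peak lists carry no marker by which the age or the tissues of the embryos could be checked. In whole embryos, weak binding in all cells and strong binding in few cannot be told apart. The annotation bore out the name of the genes: each of the 7 held snoRNA genes on its own strand, 48 in all of the 269 annotated on these arms. Of the 48, 46 belong by name to the box C/D class and 2 to the box H/ACA class. Uhg1, Uhg4 and Uhg5 lie on 2R, Uhg2 and Uhg3 on 2L, and Uhg7 and Uhg8 on 3L.

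SnoRNAs guide the chemical modification of ribosomal RNA in the nucleolus. Box C/D snoRNAs direct 2′-O-methylation by fibrillarin, and box H/ACA snoRNAs direct pseudouridylation by dyskerin. Most snoRNAs of animals are cut from introns of host transcripts, and in a Uhg transcript the spliced exons encode no known protein, so that the introns carry the product. Max, of the helix-loop-helix family of transcription factors, binds the E-box CACGTG as a dimer with Myc or Mnt. Myc is known in flies and in mammals as an activator of genes for ribosome production.

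The sequences around the summits of Uhg3, Uhg2 and Uhg8 are shown because the E-box lies beside the summit at Uhg3 and Uhg8 but not at Uhg2, and at different distances from the start, and the stretch upstream of RpL23A because its peak is the nearest to Uhg7. All are read 5′ to 3′ along the gene from the Release 6 genome of RefSeq (dm6). Capitals mark matches to 10 promoter motifs searched on both strands, which are listed with their shares further on. Uhg3 is shown from 100 bp upstream of its start (chr2L:20647433-20647632, plus strand), with the start at base 101 and the summit at base 109, just before CACGTG. Uhg2 is shown from 250 bp upstream (chr2L:9894954-9895253, minus strand), with the summit at base 83 in a stretch rich in A and T, the start at base 251 and CACGTG between them. Uhg8 is shown from 20 bp upstream (chr3L:20453273-20453522, plus strand), with the start at base 21 and the summit at base 194, just before CACGTG. The 150 bp upstream of RpL23A (chr3L:1668655-1668804, minus strand) have the summit at base 82 and hold no CACGTG.
Uhg3: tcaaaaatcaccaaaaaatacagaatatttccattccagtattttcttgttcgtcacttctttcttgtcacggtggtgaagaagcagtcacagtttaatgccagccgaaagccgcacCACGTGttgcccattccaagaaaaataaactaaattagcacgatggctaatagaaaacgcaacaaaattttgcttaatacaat
Uhg2: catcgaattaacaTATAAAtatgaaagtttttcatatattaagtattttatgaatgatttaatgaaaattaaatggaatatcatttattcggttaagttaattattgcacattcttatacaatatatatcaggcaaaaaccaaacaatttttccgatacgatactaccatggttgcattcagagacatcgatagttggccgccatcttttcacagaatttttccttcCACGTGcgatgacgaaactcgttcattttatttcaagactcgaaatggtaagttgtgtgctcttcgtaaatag
Uhg8: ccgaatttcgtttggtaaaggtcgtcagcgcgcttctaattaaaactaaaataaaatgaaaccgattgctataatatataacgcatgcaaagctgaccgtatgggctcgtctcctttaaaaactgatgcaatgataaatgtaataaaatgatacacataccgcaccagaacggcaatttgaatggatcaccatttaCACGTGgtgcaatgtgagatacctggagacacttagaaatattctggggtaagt
RpL23A: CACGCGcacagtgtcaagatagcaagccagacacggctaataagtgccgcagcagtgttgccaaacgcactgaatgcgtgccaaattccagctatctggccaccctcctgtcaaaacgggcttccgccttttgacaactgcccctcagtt

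Max-GFP peaks were found at the starts of 6 of the 7 Uhg genes, with Uhg7 as the exception. A start peak is a peak whose summit lies within 500 bp of an annotated transcript start. The peaks counted are those of the authors' list thresholded on the irreproducible discovery rate (IDR), an estimate of the rate of peaks that do not repeat between replicates. Among all 18164 annotated genes 21.3% had such a peak, among protein-coding genes 25.9%, and among the 3254 ncRNA genes other than the Uhg genes 6.18%. When a summit inside the gene also counted, the same 6 Uhg genes had a peak, against 24.5% of all annotated genes, a rule under which longer genes have more room for a peak. With 1 group of samples no test of these counts was run, and the shares of all genes are given for scale.

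**Figure D1:**
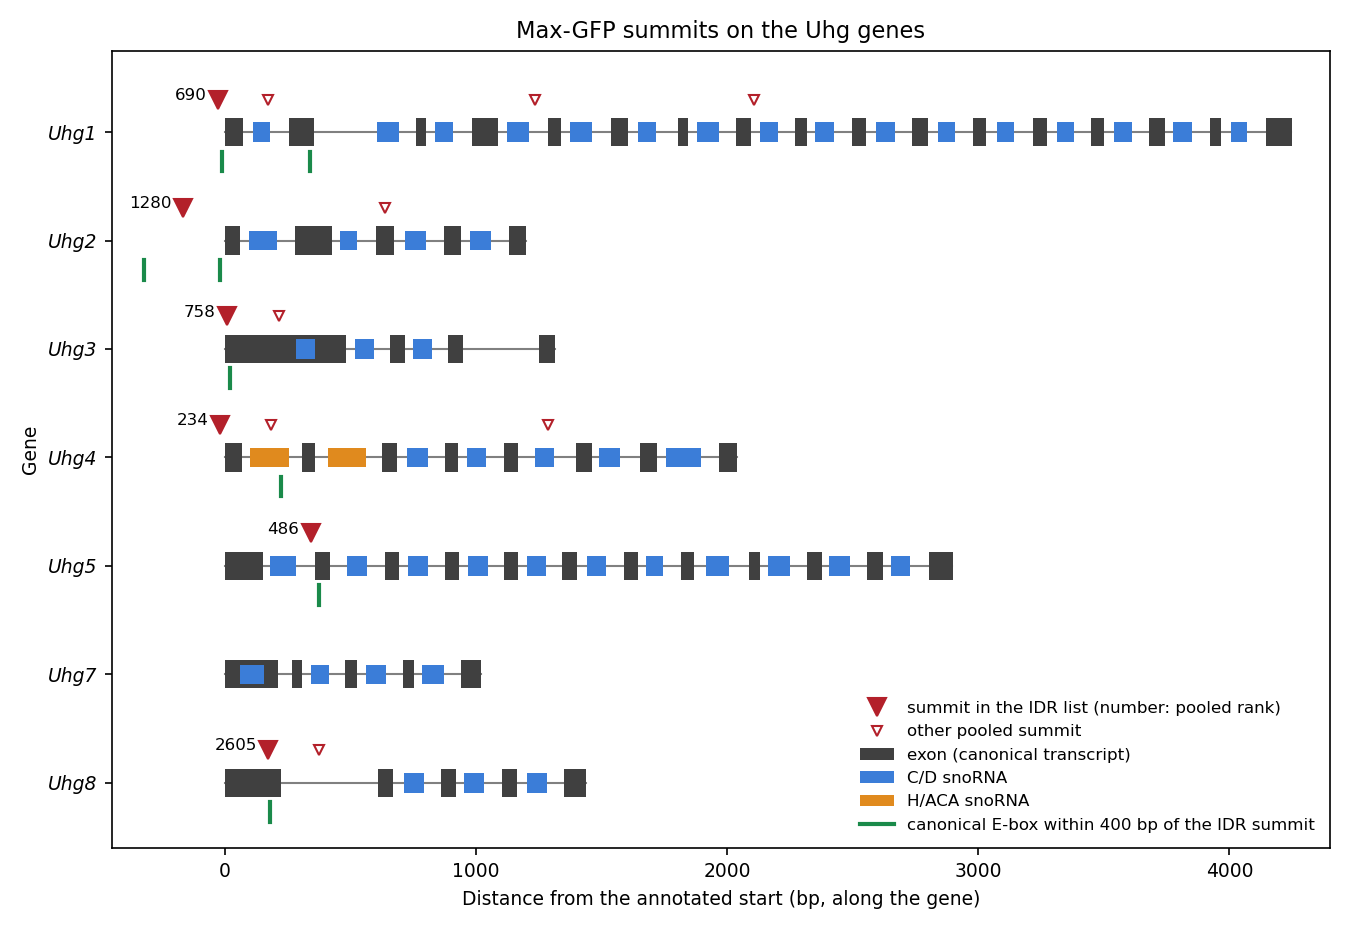
Map of the 7 Uhg genes drawn to scale from the annotated start (x axis, bp along the gene). Drawn are exons of the canonical transcript, snoRNA genes, summits of the pooled list and canonical E-boxes. E-boxes are drawn only within 400 bp of an IDR summit, so none is drawn at Uhg7. Filled triangles are summits of the IDR list with their pooled rank. The IDR summits of Uhg1, Uhg3 and Uhg4 lie at the start, that of Uhg2 upstream, those of Uhg5 and Uhg8 downstream, and Uhg7 has none.

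Sequencing depth is unknown, since no list gives reads per peak. Each replicate list and the pooled list were capped at 30000 peaks, and the IDR list holds the 4712 highest of the pooled list, with scores from 87.0 to 1561.5. The score is the enrichment value the authors deposited for each peak, on a scale of its own in each list, so scores are compared within a list only and ranks are given beside them. Of the 3875 genes with an IDR start peak, the median score was 154.8 and the median pooled rank 1906. The 6 Uhg genes had a median score of 254.8 and a median rank of 724.

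Uhg4 had the strongest peak of the family. The gene (FBgn0083124, 2R from 9095273 to 9097312, plus strand) has 8 exons and 7 introns, and each intron holds 1 snoRNA. It is the only Uhg gene with snoRNAs of both classes. Of its 7, 5 are of the C/D class and 2 of the H/ACA class, among them snoRNA:Psi28S-2949, named for a pseudouridine of the large ribosomal RNA. The peak, from 9095013 to 9095408, scored 402.3 in the pooled list, and the summit, 9095254, is 19 bp upstream of the start. The score was 203.9 in replicate 2 and 198.8 in replicate 3, while the rank was 234 in the pooled list, 383 in replicate 2 and 136 in replicate 3. The summit lay 16 bp before the start in replicate 2 and 42 bp upstream in replicate 3. The higher of its ranks in the replicates was 2.82 times the lower. Apart from snoRNA genes inside Uhg4, the nearest other start was that of Boot, 615 bp upstream on the other strand, and the summit is not within 500 bp of it. No CACGTG lay within 200 bp of the summit. The nearest begins 238 bp downstream of the summit, in intron 1. Inside the gene, beyond 500 bp, the pooled list had 1 summit, in intron 5 at rank 14304.

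Uhg5 had the next highest score, and the replicates placed its best summit farthest apart. The gene (FBgn0083123, 2R from 14621601 to 14624498, plus strand) carries 11 C/D snoRNAs, all intronic, among them guides for methylation of both large and small subunit RNA. The pooled peak, from 14621846 to 14622036, scored 298.0 at rank 486. Its summit at 14621942 lies 341 bp downstream of the start, in intron 1. In replicate 3 a single start peak had its summit 277 bp downstream, with a score of 105.4 at rank 664. Replicate 2 had 2 summits of near-equal score: one 98 bp downstream in exon 1, with 180.5 at rank 504, and one 339 bp downstream in intron 1, with 178.5 at rank 521. The ranks therefore lay close together while the best-ranked summits of the replicates lay 179 bp apart. CACGTG begins 30 bp downstream of the pooled summit, in exon 2. The start of CG12863, on the other strand 281 bp upstream of the Uhg5 start, is beyond 500 bp from the pooled summit but within 500 bp of the exon 1 summit of replicate 2. In the IDR list CG12863 had no start peak.

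Uhg1, the longest of the family, carries the most snoRNAs. The gene (FBgn0045800, 2R from 17699097 to 17703344, plus strand, 4248 bp) has 17 exons and 16 introns with 16 C/D snoRNAs, among them copies of U27, U29 and U31, which in mammals are also carried by a noncoding host gene. The peak, from 17698931 to 17699165, scored 259.8 at rank 690, and the summit, 17699070, is 27 bp upstream of the start. Scores were 163.0 in replicate 2, at rank 655, and 85.3 in replicate 3, at rank 1025, and the summits of the replicates lay 5 bp apart. CACGTG begins 14 bp upstream of the start, which is 13 bp downstream of the summit. No other start but those of its own snoRNAs was annotated within 500 bp. Beyond 500 bp from the start the pooled list held 2 low summits in the gene, in introns 4 and 8, at ranks 25322 and 26752 of 30000.

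Uhg3 had the most closely placed peak. The gene (FBgn0259936, 2L from 20647533 to 20648848, plus strand) has 3 annotated transcripts with 1 start and carries 3 copies of a guide named for C2645 of the large ribosomal RNA. Of these, 1 lies in an intron of every transcript and 2 do not. The peak, from 20647323 to 20647758, scored 249.8 at rank 758, with its summit at 20647541, 8 bp downstream of the start in exon 1. It scored 141.2 in replicate 2 and 98.5 in replicate 3, at ranks 927 and 767, with summits 10 and 13 bp downstream. CACGTG begins 17 bp downstream of the start and 9 bp downstream of the summit, as in the sequence above. No start of another gene was annotated within 1000 bp, snoRNA genes aside.

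Uhg2 shares its peak with a divergent neighbour, and the replicates ranked it far apart. The gene (FBgn0063449, 2L from 9893805 to 9895003, minus strand) carries 4 C/D snoRNAs, 2 of them copies of U14, which in yeast is needed for cutting the precursor of the small subunit RNA. The peak, from 9895072 to 9895235, scored 193.3 at rank 1280. The summit, 9895171, is 168 bp upstream of the Uhg2 start and 116 bp upstream of the start of Bka on the other strand, so the peak cannot be assigned to 1 gene. It scored 161.4 in replicate 2, at rank 673, and 40.0 in replicate 3, at rank 3691, the widest gap in rank of the 6 (5.48 times). The summits lay 166 and 93 bp upstream in replicates 2 and 3. The 101 bp around the pooled summit had a GC content of 19.8%, against a median of 34.7% over all 2967 IDR summits at starts. At the other bound Uhg genes it ran from 34.7% at Uhg5 to 47.5% at Uhg4. CACGTG begins 23 bp upstream of the Uhg2 start, which is 145 bp from the summit, and another begins 155 bp from the summit on the side of Bka. A lower pooled summit lay inside the gene, in exon 3, at rank 8492. In replicate 3 a peak in intron 2, 595 bp downstream of the start, ranked 4422, not far below that at the start.

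Uhg8 had the lowest score of the 6. The gene (FBgn0083120, 3L from 20453293 to 20454731, plus strand) carries 3 copies of a guide named for U1356 of the small subunit RNA. The peak, from 20453248 to 20453683, scored 128.4 at rank 2605, with its summit at 20453466, 173 bp downstream of the start in exon 1. It scored 98.5 in replicate 2, at rank 1843, and 31.0 in replicate 3, at rank 5294 and so outside the 4712 highest peaks of that replicate, with the authors' −log10 q at 1.43. The higher rank in the replicates was 2.87 times the lower. CACGTG begins 3 bp downstream of the summit. The start of CG5199 lies 429 bp upstream on the other strand, more than 500 bp from the summit, and CG5199 had no start peak in the pooled list.

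**Figure D2:**
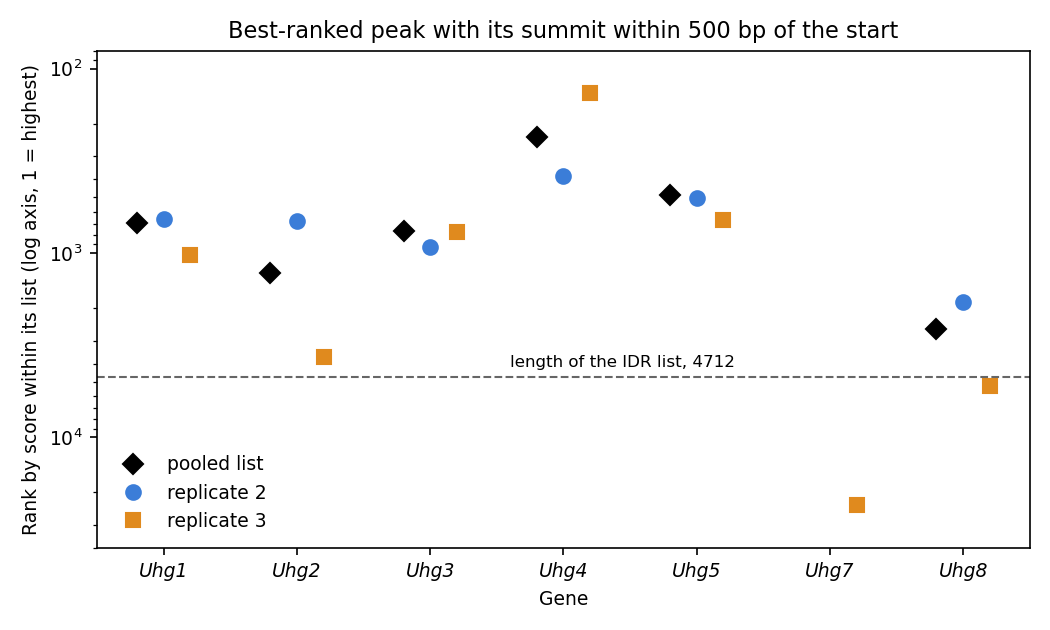
Rank (log axis, 1 is the highest score of a list) of the best-ranked start peak of each Uhg gene in the pooled list, replicate 2 and replicate 3. Uhg1, Uhg3, Uhg4 and Uhg5 rank 1025 or better in every list, Uhg1, Uhg2, Uhg5 and Uhg8 rank lower in replicate 3 than in replicate 2, and Uhg7 has a point in replicate 3 alone, at 23555.

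Uhg7 had no start peak in the IDR list, the pooled list or replicate 2. The gene (FBgn0083121, 3L from 1666288 to 1667307, minus strand) carries 4 C/D snoRNAs. Of these, 3 are intronic, and snoRNA:Or-CD15 lies in exon 1. In replicate 3 a peak 360 bp upstream of its start scored 13.3 at rank 23555 of 30000, with −log10 q of 0.129. Uhg7 also differs from the others in its annotation. It lies on the same strand inside RpL23A, which encodes a protein of the large ribosomal subunit, and its start falls in exon 3 of the longer of the 2 RpL23A isoforms. Of its 5 exons, 4 have the same ends as exons of that isoform, which has 7, and all 4 snoRNAs lie inside both genes. The nearest IDR peak was that of RpL23A (3L from 1668590 to 1668891), with a score of 394.6, close to that of Uhg4. The summit, 1668723, is 69 bp upstream of the RpL23A start and 1416 bp upstream of the Uhg7 start. It scored 216.7 in replicate 2 and 173.6 in replicate 3, at ranks 319 and 196. Which start gives rise to these snoRNAs was not tested. With RpL23A counted as the start for Uhg7, an alternative chosen after its values were seen, all 7 genes had a peak.

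**Figure D3:**
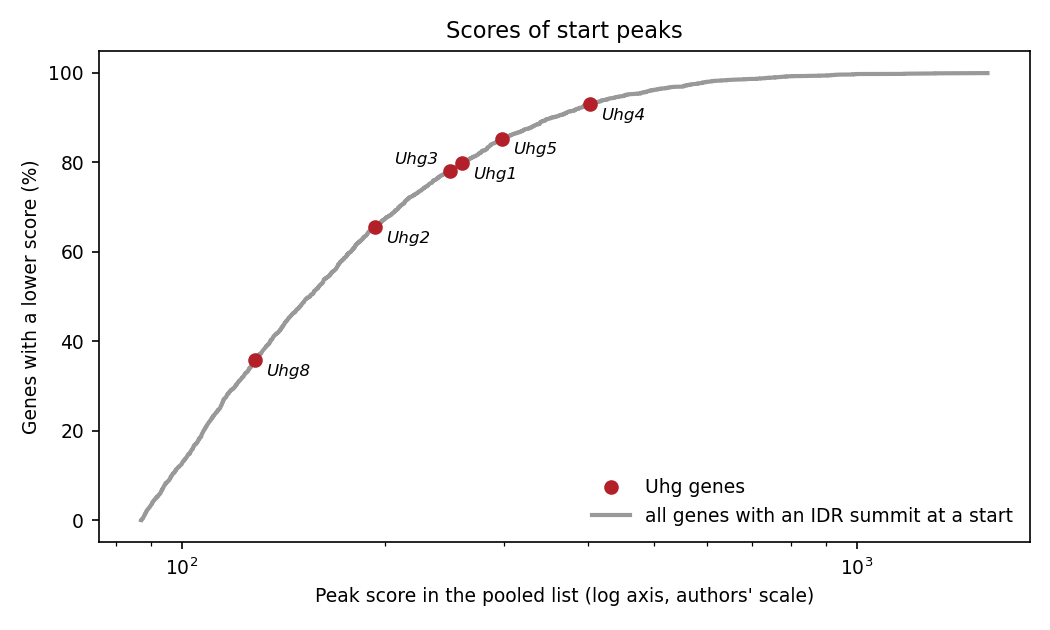
Share of the 3875 genes with an IDR start peak whose score is lower (y axis, %) against the score in the pooled list (x axis, log scale, the authors' units). The 6 Uhg genes are marked on the curve of all genes. Uhg4 scored above 93.1% of those genes, Uhg5 above 85.3%, Uhg1 above 79.8%, Uhg3 above 78.1%, Uhg2 above 65.5% and Uhg8 above 35.7%.

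Where the replicates placed the summits varied less at some Uhg genes than at others. The best-ranked start summits of replicates 2 and 3 were 3 bp apart at Uhg3, 5 bp at Uhg1, 26 bp at Uhg4, 32 bp at Uhg8, 73 bp at Uhg2 and 179 bp at Uhg5. The median was 29 bp, against 36 bp over the 3831 genes with an IDR start peak and a start peak in both replicate lists. The ratio of the higher to the lower rank had a median of 2.19 at the Uhg genes and 1.55 over those genes. A smaller second summit lay 200 to 207 bp downstream of the main one in the pooled list at Uhg1, Uhg3, Uhg4 and Uhg8, with scores from 29.4 to 50.2. Of all IDR summits at starts 47.0% had another pooled summit within 300 bp, and no 2 distinct pooled summits on an arm were nearer than 199 bp.

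The canonical E-box lay close to the summit at 4 of the 6 bound Uhg genes. CACGTG was found within 50 bp of the pooled summit at Uhg1, Uhg3, Uhg5 and Uhg8. Of all 2967 IDR summits at starts, 4.55% had such a match. At the 4 genes the match began 13, 9, 30 and 3 bp downstream of the summit, in the order Uhg1, Uhg3, Uhg5 and Uhg8. In relation to the gene its place differed: upstream of the start at Uhg1, in exon 1 at Uhg3 and Uhg8, and in exon 2 at Uhg5. Within 100 bp the same 4 genes had a match, against 7.65% of all IDR summits at starts. Within 200 bp of the summit Uhg2 also had a match, but no share of all summits is given for that window. Around the best-ranked summits of replicate 2 alone and of replicate 3 alone, Uhg1, Uhg3 and Uhg8 had a match and Uhg5 did not. At Uhg5 in replicate 2 the exon 1 summit ranks just above the one beside the E-box. A match is a description of the sequence, and whether Max-GFP was bound through it was not tested.

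The other motifs searched were not found right at the summits. They were 3 other E-boxes (CACGCG, also CATGTG, also CAGCTG), the DREF element TATCGATA, the Ohler 1 motif GGTCACAC, the Ohler 6 motif GGTATTTT, the Ohler 7 motif CATCNCTA, the TATA box TATAAA and the GAGA element GAGAGAG. None had a match within 50 bp of any of the 6 Uhg summits. Their shares over all IDR summits at starts ran from 1.42% for GAGAGAG to 22.3% for TATAAA. At such shares, the lack of a match among 6 summits does not set the Uhg genes apart. Within 100 bp, CACGCG was found at Uhg5 and TATAAA at Uhg2 and Uhg4, against 5.49% and 36% of all IDR summits at starts. With so few summits, these counts do not set the Uhg genes apart either. In the 300 bp from 250 bp upstream to 50 bp downstream of the start, whatever the summit, CACGTG was found at Uhg1, Uhg2, Uhg3 and Uhg7. Of 18163 annotated genes, 4.26% had it there. TATAAA was found in this window at 6 of the 7 genes, all but Uhg4, against 43.6% of all genes. A match counted wherever it lay in the window, and the places differed. Only Uhg5 had a match shortly before its start, beginning at -30 bp. All other upstream matches began more than 100 bp before the start, and those of Uhg7 began 9 and 29 bp downstream. Whether any of them acts as a TATA box was not tested. The window held GGTCACAC and CATGTG at Uhg5 alone, against 6.00% and 10.6% of all genes. The motif TATCGATA was in none of the 7 windows, against 7.20% of all genes. With only 7 genes, the counts of GGTCACAC, CATGTG and TATCGATA are near these shares and do not set the Uhg genes apart.

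Genes for ribosomal proteins in flies often begin in a run of pyrimidines, the TCT initiator, and in mammals snoRNA host transcripts are known to begin in a similar run. CTTT on the gene's strand, beginning within 5 bp of the annotated start, was found at Uhg1, Uhg4 and Uhg5, which is 3 of the 7 Uhg genes. The match began on the start base at Uhg5, 1 bp downstream at Uhg4 and 5 bp downstream, at the window's edge, at Uhg1. CTTT was found in this window at 46.5% of 86 ribosomal protein genes, 25.0% of 84 protein-coding snoRNA hosts and 6.31% of all annotated genes. At Uhg2, Uhg3, Uhg7 and Uhg8 these letters were not found there.

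Protein-coding genes that carry snoRNAs were set beside the Uhg genes. A host is a gene that holds an annotated snoRNA gene whole on its own strand. An IDR start peak stood at 6 of 7 Uhg genes, against 63 of 84 protein-coding hosts and 25.9% of protein-coding genes. Ribosomal protein genes are common among them, with a peak at 27 of 29, and of the other 55 hosts 36 had a peak (65.5%). Of the 48 snoRNA genes in the Uhg genes, 44 lie in a Uhg gene with a start peak. The other 4, those of Uhg7, lie under a start with a peak only through RpL23A. Of 198 snoRNA genes in protein-coding hosts and no Uhg gene, 169 had a host with a start peak (85.4%). SnoRNA genes in the same host share its peak, so they are not separate cases in these counts. CACGTG lay within 50 bp of the summit at 4 of the 6 Uhg genes, against 5 of the 63 protein-coding hosts (7.94%), namely RpL11, RpS5a, nop5, pit and pths.

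Of the 3 noncoding hosts outside the Uhg family, which are all named here, none had an IDR start peak. With a share of 6.18% over the other ncRNA genes, a count of 0 among 3 does not set these hosts apart from them. So few genes also allow no firm comparison with the Uhg genes. At lncRNA:CR42491 a pooled peak ranked 15445. At lncRNA:CR45184, which holds 5 snoRNAs, only replicate 2 had a start peak, at rank 26159, and lncRNA:CR31647 had none in any list.

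**Figure D4:**
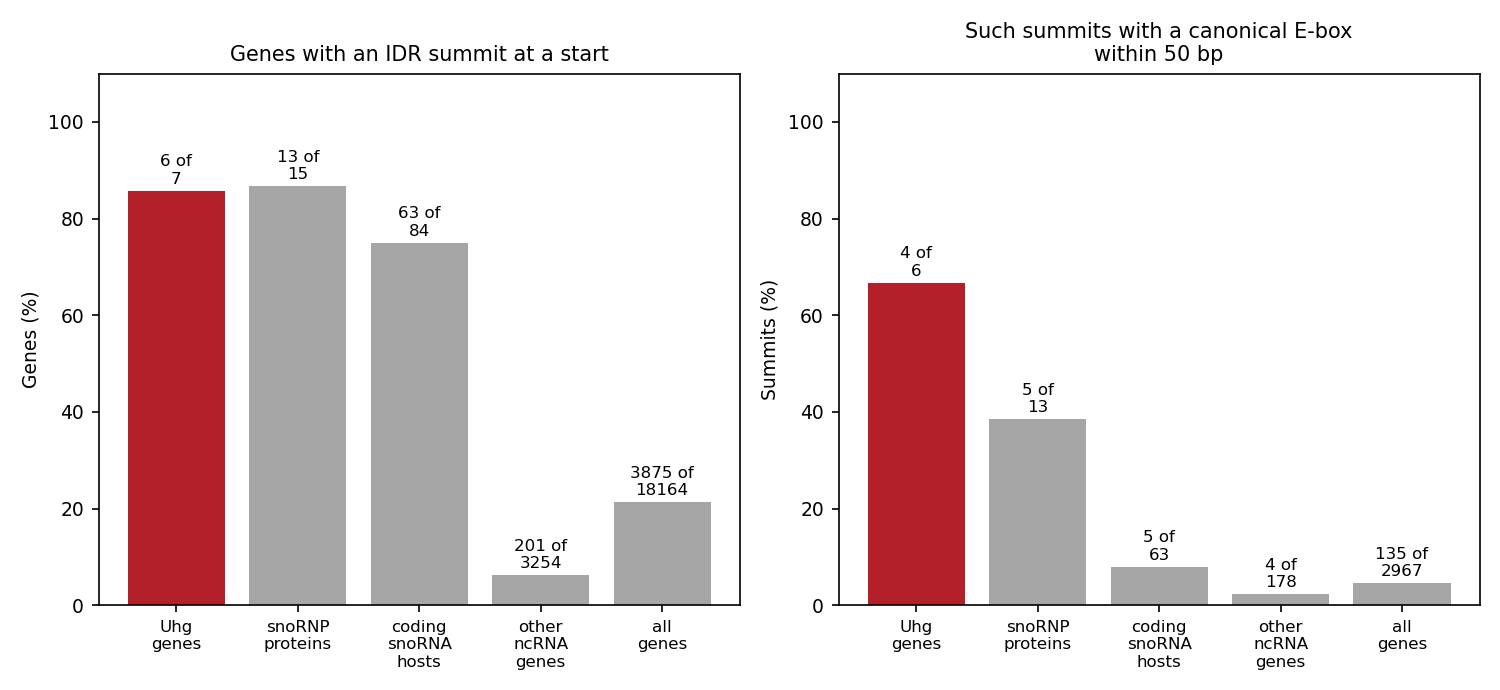
Left, the share of genes (%) with an IDR summit within 500 bp of a start. Right, the share of such summits (%) with the canonical E-box within 50 bp, counting each summit once. Bars are the Uhg genes, 15 snoRNP and assembly proteins, 84 protein-coding snoRNA hosts, 3254 other ncRNA genes and all 18164 genes. The Uhg genes stand at 6 of 7 on the left and 4 of 6 on the right, where the snoRNP proteins have 5 of 13 and all start summits 135 of 2967.

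The proteins that assemble with these snoRNAs also had Max-GFP at their starts. Of 15 genes for snoRNP core and assembly proteins, 13 had an IDR start peak, against 25.9% of protein-coding genes. In the box C/D core, Nop56 scored 591.9 at rank 78, fibrillarin (Fib) 582.0 at rank 84, hoip 161.9 at rank 1770 and nop5 155.3 at rank 1896. In the box H/ACA core, Nop10 scored 512.5, NHP2 481.9, the pseudouridine synthase Nop60B 428.8 and Gar1 121.6. Among assembly factors Nopp140, a nucleolar chaperone, scored 492.4 at rank 140. The helicases rept and pont scored 590.0 and 374.0, CG10341 scored 252.3 and Nufip 125.4. The genes without an IDR start peak were spag and Nop17l, whose pooled peaks ranked 5278 and 6973. In replicate 3 alone both lay within its 4712 highest peaks, at ranks 3264 and 2706, and in replicate 2 they did not, at 9979 and 7967. The strongest of these genes scored above every Uhg gene, while hoip, nop5, Nufip and Gar1 lay below Uhg2. CACGTG was found within 50 bp of the summit at 5 of the 13, namely Nop56, Nopp140, hoip, nop5 and CG10341, against 4.55% of all IDR summits at starts. The summits of Nop56, rept, Fib, Nop10, Nop60B, pont, Nufip and Gar1 are each also within 500 bp of a start of another gene.

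The genes most like each Uhg gene in their ranks were of varied kinds. Likeness was the distance of the log2 ranks in replicates 2 and 3, so it rests on 2 libraries. The nearest to Uhg1 was CG11200, with a pooled score of 248.4, and the nearest to Uhg5 was lncRNA:CR45618, with 286.5. MFS10 was the nearest to Uhg4, with 413.3. Hsepi and PGAP3, which share a summit, were the nearest to Uhg3, with 251.2. Next to Uhg2, after Bka with which it shares its peak, came pit, itself a snoRNA host, with 211.6, and the nearest to Uhg8 was Bcat, with 124.4.

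The nearest IDR summits that the rule did not take in lay well beyond 500 bp. They were 1416 bp from the start of Uhg7, 1700 bp from Uhg2, 1792 bp from Uhg3, 2878 bp from Uhg5, 3341 bp from Uhg4, 8272 bp from Uhg8 and 15525 bp from Uhg1. Each lay within 150 bp of a start of another gene, such as mtDNA-helicase beyond the 3′ end of Uhg2 and phr6-4 upstream of Uhg3. The start peak farthest from its start was that of Uhg5, at 341 bp.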

How the data were processed

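Peak lists on dm6 were used: those of replicates 2 and 3, of both replicates pooled, and of pooled peaks that passed an IDR threshold. Per the text listing the authors deposited, IP alignments and a control alignment, not analysed here, went into each. Aligner and caller: not given in the sources used here. Column 7, as deposited by the authors, is a peak score, and column 9 is −log10 of the q-value per the narrowPeak format that the deposited listing names. The lists on dm3 were not used. Peaks were set against Ensembl release 115 and the Release 6 genome of RefSeq, with no summit past the end of an arm. A summit counts for every gene with a start within 500 bp. SnoRNA classes were read from gene names, with Psi and aca taken as H/ACA and the rest as C/D. Positions are 1-based. Joins and motif searches were made in Python 3.11.15 with pandas 2.3.3 and were tested on simulated data. The genes, lists, windows and motifs were chosen with earlier results of these data known, and no test was run. Named are every Uhg gene and neighbour sharing a summit, snoRNP genes with a peak, the 10 protein-coding hosts of highest score (1 of them is not reported here), and up to 3 genes nearest in rank. Alternatives were other windows, parts of the lists, each replicate alone, 1 start per gene and summits nearest to the gene. The replicates are biological per the labels, which do not say whether the collections were separate.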

Additional observations from a re-analysis of the deposited data

How the results depend on the processing

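The count of 6 Uhg genes with an IDR start peak ran from 5 to 6 under 8 other settings. It was 5 in the 2356 highest IDR peaks, where Uhg8 dropped out, with a 250 bp window, where Uhg5 did, and when genes with a summit nearer to another gene's start were left out, where Uhg2 did. Without replicate 2, in the 4712 highest peaks of replicate 3, it was 5, again lacking Uhg8. Without replicate 3, in the 4712 highest peaks of replicate 2, it was 6. With summits inside the gene counted, the range was also 5 to 6. The 63 protein-coding hosts became 47 in the 2356 highest peaks and 82 with all pooled peaks, 62 and 64 without each replicate, and 36 when only the 55 hosts outside the ribosomal protein genes were counted, a choice made after the data were seen. The 13 snoRNP genes ranged from 11 to 15, with 15 without replicate 2 and 13 without replicate 3. The 201 other ncRNA genes (6.18%) became 103 in the 2356 highest peaks and 912 (28.0%) with all pooled peaks. They were 106 and 354 with windows of 250 and 1000 bp, and 125 without genes whose summit is nearer to another start. Leaving out replicate 2 gave 194 and leaving out replicate 3 gave 200. The shares over all annotated genes given above hold for the main setting, so counts under other settings cannot be set against them. The 4 Uhg genes with CACGTG near the summit became 5 within 200 bp, a window for which no share of all summits is given. They became 3 without each replicate. For this count all 30000 peaks of the remaining replicate were used, so Uhg8 is among the 3 both times. No paired analysis was possible because there is 1 group. Depth is unknown, and the cap of 30000 peaks limits what a missing peak shows.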

Other observations

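The protein-coding snoRNA hosts of highest score were led by RpL11 with 607.9, Fib with 582.0, CG1142 with 580.0 and Stt3A, a subunit of the oligosaccharyltransferase, with 479.1. Nop60B scored 428.8, RpL23A 394.6, RpL30 389.6, Msp300 379.7 and RpL28 373.3. Uhg4, the strongest of the Uhg genes with 402.3, lay between Nop60B and RpL23A. Fib and Nop60B are both hosts and proteins of the particles: Fib holds 1 annotated snoRNA gene and Nop60B holds 7. Stt3A shares its summit, 404 bp from its own start, with bves, and those of Fib, Nop60B and RpL28 are also shared with a neighbour. Of the hosts with no IDR start peak, Sf3b3 holds the most snoRNA genes, with 9, and its pooled peak ranked 6395. It was chosen for mention after its values were seen.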
